A study of Homo sapiens with 6 samples.

Results

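The collagen genes were examined in T98G cells, an established human glioblastoma line, after loss and re-expression of the Polycomb protein CBX8. A gene was taken as a collagen gene where its symbol in the count table had the form COL, a type number, A and a chain number. By this rule, 44 of the 57133 symbols in the table were collagen genes. All 6 libraries came from the T98G CBX8 KO line, which carried a doxycycline-inducible lentiviral vector together with the transactivator that drives it. In 3 libraries the vector was empty (CBX8 KO), and in 3 it encoded wild-type CBX8 (WT CBX8 re-expression), with doxycycline at 1 µg/ml for 72 h in both conditions. The genotype label of the re-expression libraries reads wild type, whereas their titles and the methods of the study describe CBX8 put back into the KO line, and the latter reading was used. Each condition was a stable line selected separately with puromycin and hygromycin, so a difference between the lines and an effect of CBX8 cannot be told apart. No library of unmodified T98G cells was analysed here.

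Collagens are the main structural proteins of the extracellular matrix, and each is built from chains wound into a helix of 3 strands. Fibrillar collagens form the cables of connective tissue, type IV collagens form the sheet of the basement membrane, FACIT collagens decorate the surface of fibrils, and the remaining types form beaded filaments, anchoring fibrils, networks or proteins that span the plasma membrane. The chains are hydroxylated and folded in the endoplasmic reticulum, exported in large carriers, trimmed outside the cell and crosslinked by lysyl oxidases. In glioblastoma, collagens are found around the tumour vessels and in tumours with mesenchymal features. CBX8 is a chromobox subunit of the Polycomb repressive complex PRC1, which binds chromatin marked by H3K27me3 and is known for keeping developmental genes silent.

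Total counts lay between 7950190 and 8659796 in the 6 libraries. CBX8 itself, which checks the labels, was counted 96, 104 and 83 times with the empty vector and 30372, 31408 and 27791 times after re-expression (log2 fold change 8.22, edgeR adjusted p = 1.0e-30). In CPM (counts scaled to TMM-adjusted library size), CBX8 went from 11.7 to 3489 on average, above the 2820 CPM of VIM in WT CBX8 re-expression. How this induced level compares with CBX8 in unmodified T98G cells is not known here. Of 6 glioma markers, VIM was abundant in every library, SOX2 and S100B were at 0 in all 6, and NES had at most 4 counts. GFAP had 13 to 17 counts in CBX8 KO and 19 to 30 in WT CBX8 re-expression, and OLIG2 14 to 15 and 19 to 38, both without overlap and short of the threshold (log2 fold changes 0.68 and 0.85, edgeR adjusted p = 0.131 and 0.0557). The summed level of 7 fibroblast or pericyte markers was 452 to 481 CPM in CBX8 KO and 563 to 572 CPM in WT CBX8 re-expression. DCN was at 0 in all 6 libraries, THY1 (269 to 374 CPM, log2 fold change 0.47) and ACTA2 (1.16 to 3.11 CPM, 1.41) were called higher. PDGFRB (187 to 180 CPM, −0.05), FAP (9.78 to 8.54 CPM, −0.20) and PDGFRA (1.07 to 1.57 CPM, 0.53) were not called, and LUM had at most 4 counts, so the difference in the sum was mostly that of THY1. The part of these markers in the collagen results was not tested. The summed levels of 4 endothelial, 4 leukocyte and 4 epithelial markers did not exceed 0.475, 3.69 and 0.705 CPM in any library.

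T98G cells expressed a limited set of collagen genes. Of the 44 genes, 16 had enough counts to be tested, and each of these had at least 43 counts in every library. The other 28 had at most 10 counts in any library. COL2A1, COL4A5, COL4A6, COL6A5, COL9A1, COL11A1 and COL11A2 were at 0 in all 6, which allows a level of up to 0.342 to 0.383 CPM, depending on the library (3 counts per library). COL3A1, the companion of type I collagen in soft tissues, had 2 to 6 counts per library, and the basement membrane gene COL4A3 had 0 to 10. COL8A2, COL9A3, COL17A1 and COL24A1 were similarly low, with no more than 8 counts in any library. The last 15 genes (COL4A4, COL5A3, COL6A6, COL9A2, COL10A1, COL14A1, COL15A1, COL19A1, COL20A1, COL21A1, COL22A1, COL23A1, COL25A1, COL26A1 and COL28A1) had 1 to 5 counts over the 6 libraries together. These 28 genes were not tested in the main fit. An alternative filter of at least 1 count took in those not at 0 throughout and called none of them. At such counts this does not show that they are alike in the conditions.

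COL6A3, the longest chain of type VI collagen, dominated the collagen transcripts. It made up 57.7 to 62.4% of all collagen counts and 0.478 to 0.529% of all counts in a library, and ranked 10 among all genes by mean CPM. Per kilobase of transcript, its mean level over the 6 libraries was 485 CPM per kb, followed by COL1A2 at 109, COL6A1 at 78.7 and COL5A1 at 55.7 CPM per kb. COL6A2 (47.6), COL4A2 (46.7) and COL5A2 (44.6 CPM per kb) stood close together. COL1A1 (2.61) and COL13A1 (2.45 CPM per kb) were the lowest of the 16. COL1A1 encodes the chain that type I collagen usually contains in the greater amount, and its level was far below that of its partner COL1A2 in all 6 libraries.

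**Figure D1:**
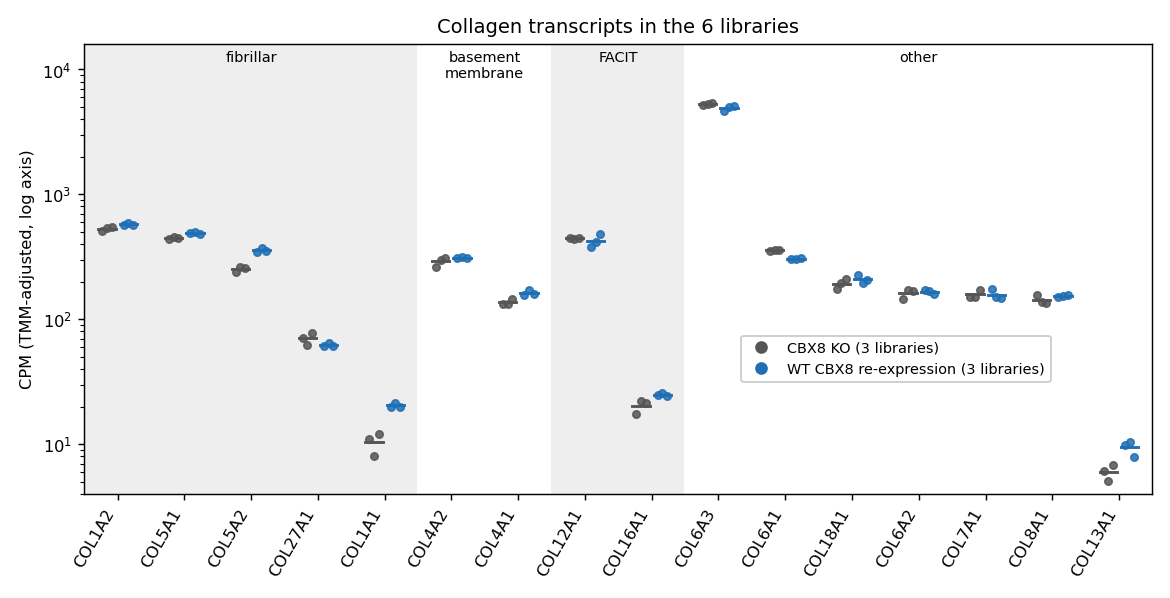
CPM (TMM-adjusted, log axis) of the 16 tested collagen genes, grouped by class. Each point is a library (grey CBX8 KO, blue WT CBX8 re-expression) and each bar a mean of 3 libraries. COL6A3 (4642 CPM or more in every library) stands above all others and COL13A1 and COL1A1 stand lowest, and the blue points of COL1A1, COL5A2, COL13A1 and COL4A1 lie above the grey ones.

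The comparison of the conditions asked how collagen transcripts differ between the empty vector and induced CBX8, and "with CBX8" refers to this induced level. COL1A1, COL5A2 and COL4A1, and with less stability COL13A1, were higher with CBX8, and COL6A1 was lower. In the fit over all 14461 tested genes, 4 of the 16 collagen genes were called higher, against 6.23% of all tested genes, and 1 was called lower, against 6.63% of all (FDR < 0.05). In either direction, 5 of 16 (31.2%) were called, against 12.9% of all. The libraries of the conditions did not overlap for 9 of the 16, against 28.9% of all tested genes, with 7 higher and 2 lower in WT CBX8 re-expression. The median log2 fold change was 0.11 for the collagen genes and 0.00 for all tested genes, with 11 collagen genes above 0 and 5 below. These shares and medians are descriptions, since nothing here tests the collagen genes as a group. They are also not matched for count. Each tested collagen gene had at least 43 counts in every library, while some other tested genes, such as GFAP and OLIG2, had fewer. Calls and gaps between conditions are easier to reach with more counts. In bulk RNA, fewer cells that express a gene and less of its RNA per cell cannot be told apart. The replicates are numbered libraries of which no source used here says that they are separate cultures, so p-values measure the spread between libraries, which may be technical.

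Collagen transcripts were rich in G and C and long. The median GC content was 60.8% against 47.9% for all tested genes, and the median length was 6180 against 3233 bases. After each library's trends with GC content and length were removed, the 5 called genes were still called. The median of the collagen genes then fell to 0.04, and 4 genes were called lower, adding COL6A3 (log2 fold change −0.19), COL12A1 (−0.14) and COL27A1 (−0.27). With scaling by library size alone, 7 were called higher, adding COL1A2, COL5A1 and COL16A1, while the median of all tested genes moved up by 0.06. The shares of all tested genes called under these settings were not computed. The direction of COL7A1 flipped with upper quartile or library size scaling and that of COL6A2 with the GC and length correction, and the other 14 genes kept theirs under these scalings.

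**Figure D2:**
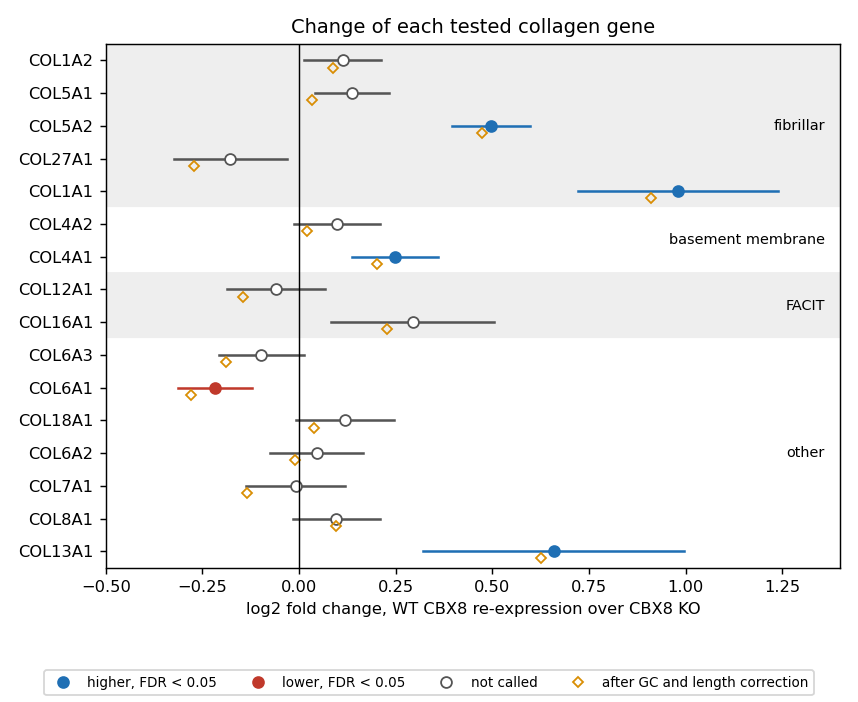
Log2 fold change of WT CBX8 re-expression over CBX8 KO for the 16 tested collagen genes, with 95% intervals, filled where FDR < 0.05. Diamonds give the value after a GC and length correction, and lie to the left of the uncorrected value for 15 genes and at the same place for COL8A1. COL1A1 has the largest value (0.98) and COL6A1 is the filled gene below 0 (−0.22).

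Of 11 fibrillar collagen genes, 5 were tested. Of these, 2 were called higher and none lower (40%, against 12.9% of all tested genes in either direction). COL1A1 (chr17:50184101-50201632, minus strand, coordinates in hg38 here and below) encodes a chain of type I collagen, the main collagen of bone, skin and scar tissue. Its counts were 88, 68 and 94 in CBX8 KO and 170, 187 and 168 in WT CBX8 re-expression. All re-expression values were above all KO values, in a low range of counts. In CPM, COL1A1 went from 10.4 ± 2.07 to 20.4 ± 0.792 (SD, n = 3 libraries each), 1.97-fold, with a log2 fold change of 0.98 (SE 0.13, 95% interval 0.72 to 1.24, edgeR adjusted p = 3.01e-06).

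COL1A2 (chr7:94394895-94431227, plus strand), the other chain of type I collagen, had 512, 542 and 544 CPM in CBX8 KO and 565, 594 and 569 CPM in WT CBX8 re-expression. The conditions did not overlap, but the difference did not pass the test (log2 fold change 0.11, SE 0.05, edgeR adjusted p = 0.134). It passed with scaling by library size alone (0.17, adjusted p = 0.0188).

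Type V collagen nucleates fibrils and sets their diameter. COL5A2 (chr2:189031898-189225312, minus strand) had 241, 260 and 257 CPM in CBX8 KO and 348, 370 and 350 CPM in WT CBX8 re-expression. The gap between the conditions was wider than the range within either. The log2 fold change was 0.50 (SE 0.05, 95% interval 0.39 to 0.60, edgeR adjusted p = 4.65e-08), the smallest adjusted p of the collagen genes. Its partner COL5A1 (chr9:134641803-134844843, plus strand) had 439, 457 and 449 CPM in CBX8 KO and 489, 504 and 485 CPM in WT CBX8 re-expression. These also did not overlap, and the log2 fold change of 0.14 (SE 0.05) missed the threshold (edgeR adjusted p = 0.0547). It passed under 5 alternatives, with adjusted p from 0.00589 with library size scaling to 0.0483 with the newer quasi-likelihood method, while the GC and length correction reduced the value to 0.03 (adjusted p = 0.648). COL27A1, a fibrillar collagen of cartilage, was at 70.4 ± 8.05 and 62.2 ± 1.76 CPM, with overlapping libraries and a log2 fold change of −0.18 (edgeR adjusted p = 0.107). Its value was −0.26 without CBX8 KO replicate 2 (edgeR adjusted p = 0.0242) and −0.10 without CBX8 KO replicate 3 (adjusted p = 0.433).

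The basement membrane genes COL4A1 and COL4A2 encode the chains of the common type IV network around vessels. They lie head to head on chromosome 13 and start from a shared region. The region is shown beside the RNA levels of both genes, which do not measure its output in either direction. Between the RefSeq starts (GRCh38.p14, chr13:110307158-110307283, written on the plus strand, so that COL4A2 is read to the right and COL4A1 to the left) it has 126 bases, 80.2% G and C and 20 CpG. Capitals mark CCAAT, at position 22, and GGGCGG, the core of a GC box, at position 62, counted from the left. Both strands were searched for these motifs and for TATAAA, the core of a TATA box. The last bases on the right lie in exon 1 of COL4A2 transcripts that GENCODE starts further upstream.
COL4A1-COL4A2: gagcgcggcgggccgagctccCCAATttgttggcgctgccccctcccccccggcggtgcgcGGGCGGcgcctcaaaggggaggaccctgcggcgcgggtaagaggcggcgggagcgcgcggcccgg

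COL4A1 (chr13:110148963-110307157, minus strand) had 132, 133 and 146 CPM in CBX8 KO and 157, 171 and 160 CPM in WT CBX8 re-expression. All re-expression libraries were above all KO libraries, 1.19-fold on average, with a log2 fold change of 0.25 (SE 0.05, 95% interval 0.14 to 0.36, edgeR adjusted p = 0.00241). COL4A2 (chr13:110305812-110513209, plus strand) had 263, 297 and 312 CPM in CBX8 KO and 309, 316 and 307 CPM in WT CBX8 re-expression. Its conditions overlapped, since CBX8 KO replicate 3 lay within the range of the re-expression libraries. The log2 fold change was 0.10 (SE 0.05, 95% interval −0.01 to 0.21, edgeR adjusted p = 0.273). It was 0.03 without CBX8 KO replicate 1, 0.15 without CBX8 KO replicate 3, 0.15 with library size scaling and 0.02 after the GC and length correction, and passed in none of these. The strand setting used for counting is not given in the sources used here. COL4A2 shares 1.26% of its transcript with COL4A2-AS1 on the other strand and 0.217% with COL4A2-AS2, whose own adjusted p values were 0.691 and 0.663 in edgeR.

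Of 10 FACIT genes, 2 were tested and neither passed the test, too few to set against the 12.9% of all tested genes called. COL12A1 (chr6:75084326-75206267, minus strand), a collagen of tendon and of stroma under load, had 450, 438 and 446 CPM in CBX8 KO and 381, 413 and 485 CPM in WT CBX8 re-expression. The KO libraries lay inside the wide range of the re-expression libraries (log2 fold change −0.06, SE 0.06, edgeR adjusted p = 0.596). This value depended on WT CBX8 re-expression libraries: it was 0.01 without replicate 1, −0.04 without replicate 2 and −0.17 without replicate 3 (adjusted p = 0.0464 in edgeR). It was −0.01 with library size scaling. COL16A1 (chr1:31652263-31704319, minus strand), a minor fibril-associated collagen, had 17.4, 21.98 and 21.4 CPM in CBX8 KO and 24.8, 25.6 and 24.2 CPM in WT CBX8 re-expression. The conditions did not overlap, and the log2 fold change of 0.29 (SE 0.10, edgeR adjusted p = 0.0598) missed the threshold. Leaving out a CBX8 KO library moved it either way: it was 0.20 without replicate 1 (edgeR adjusted p = 0.256) and passed without replicate 2 (0.36, adjusted p = 0.0457).

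Type VI collagen forms beaded filaments between cells and the surrounding matrix. COL6A1 (chr21:45981770-46005050, plus strand) had 351, 360 and 355 CPM in CBX8 KO and 305, 304 and 309 CPM in WT CBX8 re-expression. Here all re-expression libraries were below all KO libraries, by more than the range within either condition. The mean of WT CBX8 re-expression was 0.861 times that of CBX8 KO, with a log2 fold change of −0.22 (SE 0.05, 95% interval −0.31 to −0.12, edgeR adjusted p = 0.00191). COL6A3 (chr2:237324003-237414328, minus strand) had 5171, 5279 and 5379 CPM in CBX8 KO and 4642, 5018 and 5136 CPM in WT CBX8 re-expression. Its conditions did not overlap, but the difference did not pass (log2 fold change −0.10, SE 0.05, edgeR adjusted p = 0.263) unless GC content and length were corrected (−0.19, adjusted p = 0.00236). The value was smaller with library size scaling (−0.04, adjusted p = 0.649) and in the fit that left out WT CBX8 re-expression replicate 1 (−0.06, with an adjusted p of 0.585). COL6A2, the remaining expressed chain, was at 161 ± 14.8 and 166 ± 6.79 CPM (log2 fold change 0.05, edgeR adjusted p = 0.687), with overlapping libraries and a value of −0.03 without CBX8 KO replicate 1.

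COL13A1 (chr10:69801880-69964275, plus strand) encodes a collagen that spans the plasma membrane and is known for its role at the neuromuscular junction. The 250 bases before its RefSeq start (GRCh38.p14, chr10:69801656-69801905, plus strand) are shown because COL13A1 is the called gene outside type IV with a RefSeq promoter window. They have 64.0% G and C and 16 CpG. The TATAAA in capitals is at position 15 from the left, far from the start on the right, where the last bases lie in exon 1 of a GENCODE transcript.
COL13A1: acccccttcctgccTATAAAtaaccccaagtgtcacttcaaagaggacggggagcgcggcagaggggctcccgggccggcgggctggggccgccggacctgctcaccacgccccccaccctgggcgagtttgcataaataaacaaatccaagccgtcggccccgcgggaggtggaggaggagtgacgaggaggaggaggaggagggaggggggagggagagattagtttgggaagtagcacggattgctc

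COL13A1 had 48, 43 and 53 counts in CBX8 KO and 84, 92 and 66 in WT CBX8 re-expression. The conditions did not overlap, and the counts were the lowest of the 16 genes. The log2 fold change was 0.66 (SE 0.16, 95% interval 0.32 to 0.995, edgeR adjusted p = 0.00715). The call was lost with DESeq2 (adjusted p = 0.0773). It was also lost in edgeR without CBX8 KO replicate 2 (adjusted p = 0.0609) or, separately, without replicate 2 of WT CBX8 re-expression (0.0572). COL1A1, COL5A2, COL4A1 and COL6A1 were called under every one of the 17 alternatives.

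The 3 other tested genes did not pass. COL7A1, which forms the anchoring fibrils of skin, was at 158 ± 12.5 and 157 ± 14.2 CPM (log2 fold change −0.01, edgeR adjusted p = 0.956). COL8A1, a network-forming collagen of vessel walls and the cornea, was at 143 ± 10.7 and 153 ± 1.84 CPM (0.10, edgeR adjusted p = 0.281). COL18A1, the source of the fragment endostatin, was at 193 ± 18.6 and 210 ± 15.8 CPM (0.12, edgeR adjusted p = 0.235). All 3 had overlapping libraries. When a library was left out, COL7A1 ran from −0.09 (without WT CBX8 re-expression replicate 1) to 0.06 (without CBX8 KO replicate 3), COL8A1 from 0.06 (without CBX8 KO replicate 3) to 0.16 (without CBX8 KO replicate 1), and COL18A1 from 0.05 (without CBX8 KO replicate 1) to 0.18 (without CBX8 KO replicate 3), with 0.06 without WT CBX8 re-expression replicate 1. COL18A1 shares 28.9% of its transcript with SLC19A1 on the other strand, so some reads cannot be assigned without knowing how strand was treated, and SLC19A1 itself had a log2 fold change of −0.00.

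The RefSeq promoter table held windows for 11 of the 16 tested genes and none for COL1A1, COL1A2, COL5A2, COL6A1 and COL8A1. In the 250 bases before the start, counting the window listed at the top for each gene, GGGCGG was found for 9 of the 11, against 42.6% of all 35116 windows. CCAAT was found for 2 (COL4A1 and COL4A2, from the bases they share) against 32.0% of all windows, and TATAAA for 3 (COL6A2, COL7A1 and COL13A1) against 10.7%. A further window of COL18A1, which has 2, also held TATAAA. The windows of COL4A1 and COL4A2 share the 126 bases between their starts. Both are counted among the 9 with GGGCGG and in the CpG values below. The median number of CpG was 21 for the collagen genes and 11 for all windows, from 3 in COL6A3 to 40 in COL4A2. The G and C content of the counted collagen windows ran from 56.0% (COL6A3) to 88.4% (COL18A1), against a median of 58% for all windows. The motif shares were not matched for it. These matches are descriptions of letters and do not show that a factor binds.

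The balance between chains that assemble into the same molecule was described by ratios. Ratios of CPM per kb were formed within each library for 5 pairs of chains, so that library scaling cancels. A library's trends with GC content and length do not cancel where partners differ in these, and no ratio corrected for them was formed. COL1A1/COL1A2 was 0.0186, 0.0128 and 0.0190 in CBX8 KO and 0.0303, 0.0308 and 0.0301 in WT CBX8 re-expression, a log2 difference of 0.88. COL4A1/COL4A2 was 0.496, 0.442 and 0.461 in CBX8 KO and 0.501, 0.534 and 0.512 in WT CBX8 re-expression, a log2 difference of 0.15. COL5A1/COL5A2 was 1.47, 1.42 and 1.42 in CBX8 KO and 1.14, 1.1 and 1.12 in WT CBX8 re-expression, a log2 difference of −0.36.

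The type I and type IV ratios were higher and the type V ratio was lower with CBX8, in each case without overlap between conditions. Within type VI, COL6A1/COL6A2 went from 1.82 ± 0.155 to 1.51 ± 0.0753 (log2 difference −0.27), and COL6A3/COL6A1 from 5.92 ± 0.0998 to 6.43 ± 0.309 (0.12), again without overlap. In every pair the exact permutation test (two-sided) gave p = 0.1, also after adjustment over the 5 pairs. With 3 libraries against 3 this is the smallest p the test allows, so no pair could reach 0.05. The absence of overlap in 5 of 5 pairs is a description: COL1A1, COL4A1, COL5A2 and COL6A1, which were called, are all in these pairs, 28.9% of single tested genes did not overlap, and no share was computed for other pairs of genes. Both type VI ratios contain COL6A1 and are not independent.

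**Figure D3:**
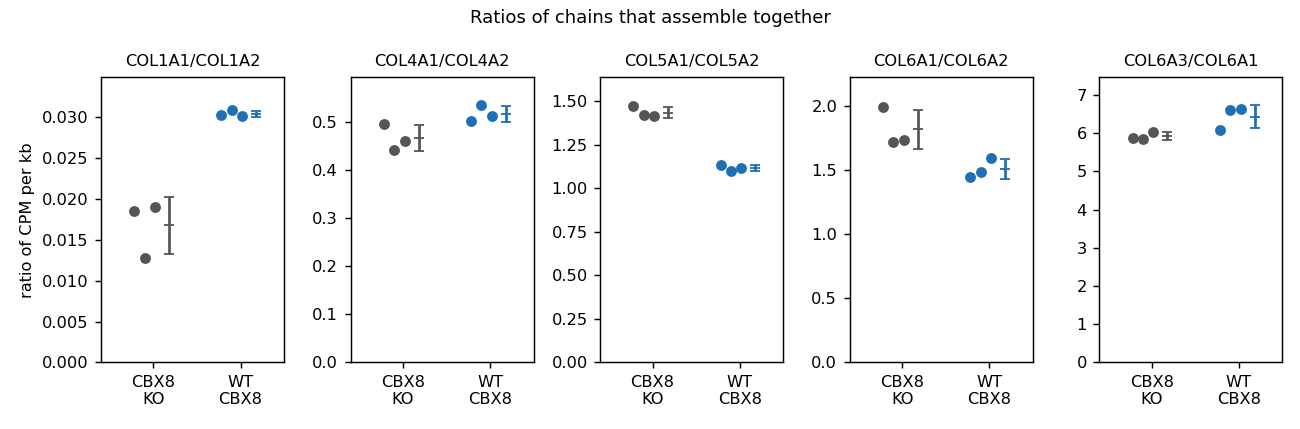
Ratio of CPM per kb between 5 pairs of collagen chains in each library (points), with the mean and SD of 3 libraries beside them, on axes that start at 0. The conditions do not overlap in any of the 5 pairs, and the widest relative gap is that of COL1A1/COL1A2 (0.0168 against 0.0304 on average).

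Summed over a class, the fibrillar transcripts were 1276, 1330 and 1341 CPM in CBX8 KO and 1484, 1555 and 1487 CPM in WT CBX8 re-expression, 14.7% higher on average (19.1% with library size scaling). The conditions did not overlap, and COL1A2, COL5A1 and COL5A2 supplied most of this sum. The largest part of the rise was that of COL5A2 (253 to 356 CPM on average). COL1A2 (533 to 576 CPM) and COL5A1 (448 to 493 CPM), which were not called, added less, and COL27A1 went the other way. The 6 basement membrane genes summed to 428 ± 31.5 and 474 ± 11.7 CPM, 10.8% higher with CBX8 and also without overlap. The 10 FACIT genes summed to 465 ± 4.43 and 452 ± 52.4 CPM, with overlapping libraries and a sign that turned with library size scaling (−2.81% against 0.884%).

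The remaining 17 genes, to which COL6A3 contributed most, summed to 6296 ± 138 and 5936 ± 228 CPM, a change of −5.71%. The libraries did not overlap with TMM but did with library size scaling (−2.10%). For all 44 genes, the sum was 8505 ± 202 CPM in CBX8 KO and 8372 ± 290 CPM in WT CBX8 re-expression, with overlapping libraries. The sign of this difference depended on the scaling (−1.57% with TMM, 2.21% with library size). Leaving out COL6A3, the sum was 3229 ± 98.9 and 3440 ± 33.9 CPM, 6.54% higher with CBX8 (10.6% with library size scaling). These sums are given without a test.

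**Figure D4:**
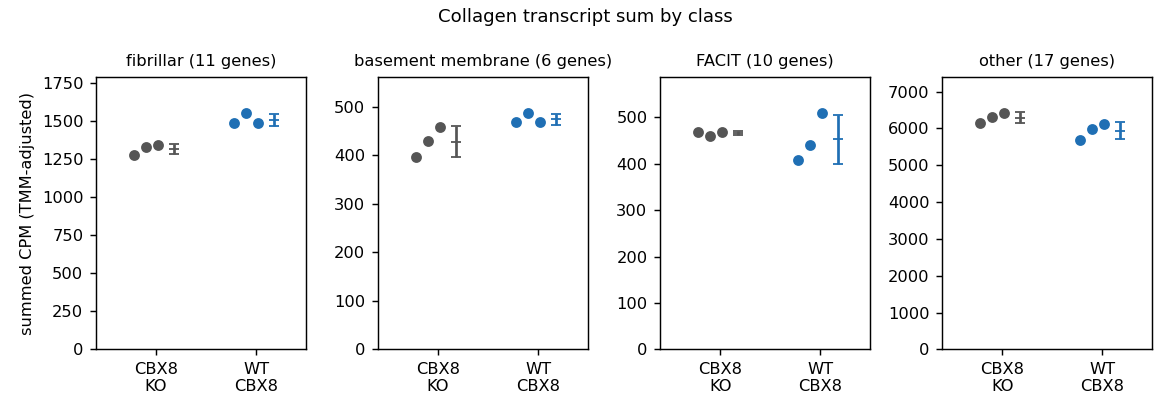
Summed CPM (TMM-adjusted) of the collagen genes of each class in each library (points), with the mean and SD of 3 libraries beside them, on axes that start at 0. The fibrillar and basement membrane sums are higher in all WT CBX8 re-expression libraries, the sum of the other types is lower with this scaling, and the FACIT sums overlap.

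The genes that make, export, process and bind collagen moved in both directions. Of 52 listed genes, 43 were tested, 7 were called higher and 6 lower, 30.2% in all against 12.9% of all tested genes. Their median log2 fold change was 0.02, against 0.00 for all tested genes. These lists were chosen with earlier results of these data known, and no list was tested as a group. The share called was not matched for count to that of all tested genes.

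Of 18 genes for folding and modification in the endoplasmic reticulum, 3 were called higher and 3 lower (33.3%, against 12.9% of all tested genes). PLOD2, which hydroxylates the lysines used for stable crosslinks and had the highest CPM of this list averaged over all libraries, had 982, 989 and 911 CPM in CBX8 KO and 660, 669 and 659 CPM in WT CBX8 re-expression. It fell by 0.54 on the log2 scale, with no overlap (SE 0.05, edgeR adjusted p = 1.14e-08). P4HA1 and P4HA2 encode alternative catalytic subunits of prolyl 4-hydroxylase, the enzyme whose product stabilises the collagen helix. P4HA1 went from 108 ± 4.67 to 88.1 ± 3.05 CPM (log2 fold change −0.29, edgeR adjusted p = 7.27e-04), and P4HA2 from 49.7 ± 5.91 to 59.2 ± 1.04 CPM (0.25, 0.0261). These subunits thus moved in opposite directions, each without overlap between conditions. COLGALT1, which adds galactose to hydroxylysine, went from 218 ± 8.77 to 189 ± 6.34 CPM (−0.21, edgeR adjusted p = 0.00587). SERPINH1, the collagen chaperone HSP47, went from 275 ± 13.2 to 324 ± 8.02 CPM (0.24, edgeR adjusted p = 0.00144). P3H2, a prolyl 3-hydroxylase, went from 320 ± 4.72 to 361 ± 20.1 CPM (0.17, edgeR adjusted p = 0.0216).

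The calls of PLOD2, P4HA1, COLGALT1 and SERPINH1 held under every alternative. That of P4HA2 was lost with DESeq2 (adjusted p = 0.134) and in edgeR without CBX8 KO replicates 1 or 3 or WT CBX8 re-expression replicates 1 or 2 (adjusted p from 0.0784 to 0.168). That of P3H2 was lost in edgeR without CBX8 KO replicates 2 or 3 or WT CBX8 re-expression replicates 1 or 2 (0.0578 to 0.166).

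Crosslinking by lysyl oxidases gives collagen fibrils their strength. LOX, the founding member of the family, had 135, 138 and 128 CPM in CBX8 KO and 88.9, 93.2 and 93.0 CPM in WT CBX8 re-expression. It fell by 0.54 on the log2 scale without overlap (SE 0.05, edgeR adjusted p = 4.43e-08). LOXL1, known for its role with elastic fibres, had 48.1, 54.2 and 46.5 CPM in CBX8 KO and 34.3, 34.5 and 39.2 CPM in WT CBX8 re-expression, and fell by 0.46 (SE 0.08, edgeR adjusted p = 2.73e-04). LOXL3 went the other way, with 12.6, 17.0 and 13.8 CPM in CBX8 KO and 21.0, 21.4 and 18.3 CPM in WT CBX8 re-expression (log2 fold change 0.48, SE 0.12, edgeR adjusted p = 0.00609). Its conditions did not overlap, but the call was lost with DESeq2 (adjusted p = 0.0517). LOXL2, with the highest mean CPM of the 5 listed genes, was at 371 ± 11.3 and 377 ± 14.5 CPM (0.02, edgeR adjusted p = 0.831). LOXL4 had at most 1 count in any library and was not tested. LOX and LOXL1 were called under every alternative.

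Of 11 export genes, CREB3L2 alone was called (9.09%, against 12.9% of all tested genes). It encodes a membrane-bound transcription factor of the secretory pathway and went from 162 ± 14.0 to 183 ± 11.2 CPM, with overlapping libraries (log2 fold change 0.18, edgeR adjusted p = 0.0481). The call was lost with DESeq2 (adjusted p = 0.145), with limma voom (0.05001), with the replicate block (0.0868) and in edgeR without CBX8 KO replicates 2 or 3 or WT CBX8 re-expression replicates 2 or 3 (0.119 to 0.276). In edgeR it was also lost with RLE scaling (adjusted p = 0.0529), the newer quasi-likelihood method (0.0516) and a filter of at least 50 counts (0.0515). SEC31A, a coat protein of the export carriers with the highest mean CPM of this list, was at 274 ± 13.8 and 274 ± 4.53 CPM (0.00, edgeR adjusted p = 0.997).

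Of 10 genes for propeptide cleavage, 4 were tested. BMP1, the procollagen C-proteinase and the gene of this list with the highest mean CPM, had 31.6, 35.3 and 35.4 CPM in CBX8 KO and 41.1, 39.5 and 40.8 CPM in WT CBX8 re-expression. Its conditions did not overlap (log2 fold change 0.25, edgeR adjusted p = 0.0437). This call was lost with DESeq2 (adjusted p = 0.205), with the replicate block (0.0762), with the GC and length correction (0.0546) and in edgeR without any one library, whichever it was (0.0541 to 0.179). A filter of at least 1 count also lost it (edgeR adjusted p = 0.0829).

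Of 8 genes for collagen receptors and uptake, 6 were tested. ITGB1, the beta subunit shared by the collagen-binding integrins and the gene of this list with the highest mean CPM, went from 728 ± 19.5 to 803 ± 10.4 CPM without overlap (log2 fold change 0.14, edgeR adjusted p = 0.0497). ITGA1, an alpha subunit that pairs with it and binds basement membrane collagen, went from 38.5 ± 1.98 to 31.0 ± 3.25 CPM without overlap (−0.31, edgeR adjusted p = 0.0195). The ITGB1 call was lost with the replicate block (adjusted p = 0.1104) and in edgeR without any one library (0.0709 to 0.156). In edgeR, ITGB1 was also lost with RLE scaling (adjusted p = 0.0553) and with filters of at least 1 count (0.0945) or 50 counts (0.0513). The ITGA1 call was lost with DESeq2 (adjusted p = 0.0734), with library size scaling (0.0562) and in edgeR without CBX8 KO replicate 2 or WT CBX8 re-expression replicates 1 or 2 (0.0612 to 0.1003).

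**Figure D5:**
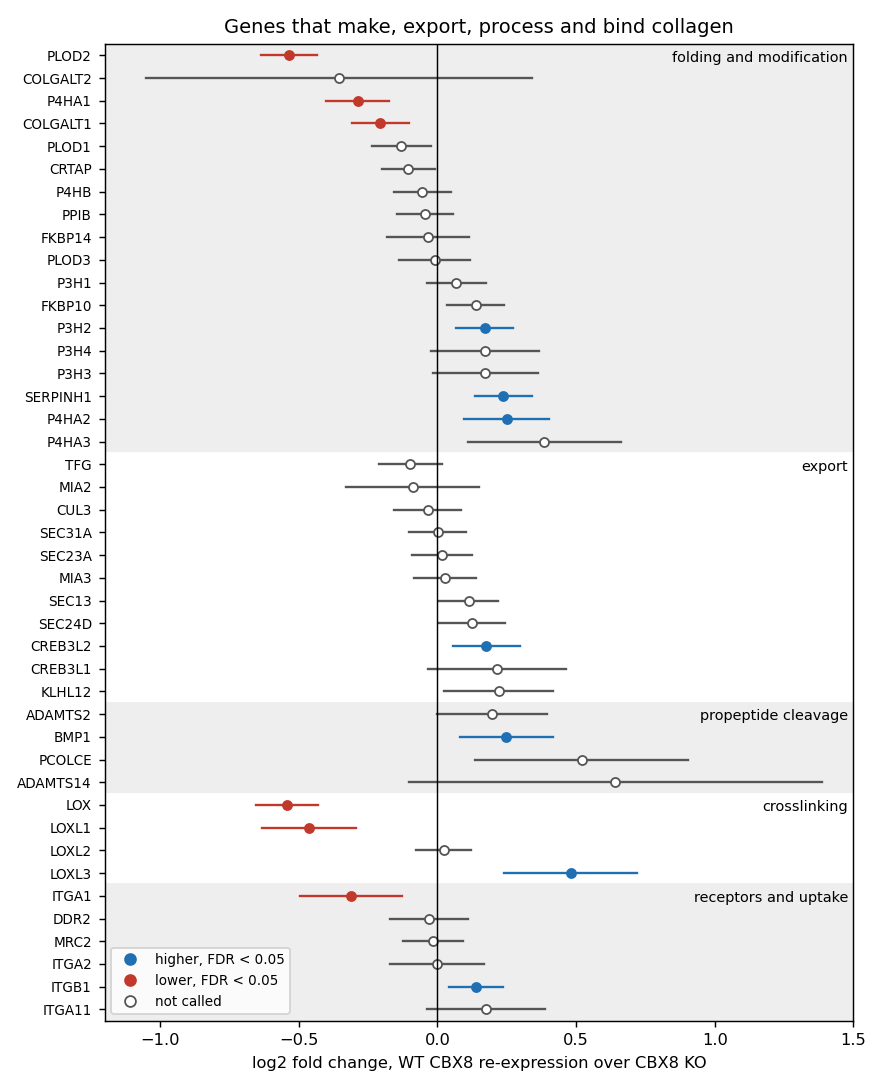
Log2 fold change of WT CBX8 re-expression over CBX8 KO for the 43 tested genes that make, export, process and bind collagen, with 95% intervals and grouped by list, filled where FDR < 0.05. PLOD2, LOX and LOXL1 lie farthest below 0 among the filled genes (−0.54, −0.54 and −0.46) and LOXL3 farthest above (0.48).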

How the data were processed

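RNA-seq was analysed for 3 CBX8 KO and 3 WT CBX8 re-expression libraries. Raw counts for each gene symbol were deposited by the authors, who had trimmed paired-end reads of poly(A) RNA (Trimmomatic) and mapped them (HISAT2, hg38). The counting program, annotation and strand setting are not given in the sources used here, and without molecular identifiers precision from depth covers counting error only.

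The 14461 genes that passed the default filterByExpr in edgeR 4.0.16 (R 4.3.3) were scaled by TMM, and tested by glmQLFit and glmQLFTest with condition as the only term. P-values were adjusted by Benjamini-Hochberg over all tested genes, with FDR < 0.05 as the threshold. CPM values use TMM-adjusted library sizes. Gene symbols were looked up in GENCODE release 44 by name (36219) or RefSeq synonym (894) for coordinates, canonical transcript length and GC content, and 87.3% of tested genes had the latter values. None of the 16 tested collagen genes had an alternate copy on the 261 alternate contigs of hg38. Promoter sequences are from RefSeq (GRCh38.p14).

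Every collagen gene called at FDR < 0.05, the 2 with the highest CPM per kb of each class, COL4A1 and COL4A2 are given by library, as is every called pathway gene or its mean. Members and lists were chosen with earlier results of these data known. The alternatives were 3 scalings, DESeq2 1.42.0, limma voom (limma 3.58.1), another quasi-likelihood method, 2 filters, FDR < 0.01, the replicate block, a GC and length correction, and fits without each of the libraries.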

Additional observations from a re-analysis of the deposited data

How the results depend on the processing

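For the 16 tested collagen genes, the 17 alternatives gave 272 values, of which 248 kept direction and call, 3 lost the call, 13 gained it and 8 reversed. The alternative of FDR < 0.01 reads the main fit at another threshold, so it could not reverse a direction. The reversed values belonged to 3 genes that were not called. COL7A1 (−0.01) was 0.003752 with upper quartile and 0.04723 with library size scaling, and ran from −0.0879 to 0.05668 when a library was left out. COL6A2 (0.05) was −0.01168 with the GC and length correction and ran from −0.02987 to 0.09299, and COL12A1 (−0.06) ran from −0.1653 to 0.01166. The 4 higher calls became 7 with library size scaling, and the 1 lower call became 4 with the GC and length correction. The share of all tested genes called was computed for the main fit only. Counts under the alternatives, here and below, therefore have no such share beside them. Leaving out a library gave 3 to 4 higher and 1 to 2 lower collagen genes. The 2 lower genes were found without CBX8 KO replicate 2, which added COL27A1, and without WT CBX8 re-expression replicate 3, which added COL12A1. The 7 higher pathway genes became 12 with library size scaling, 3 with DESeq2 and 2 at FDR < 0.01, and 2 to 5 when a library was left out (2 without WT CBX8 re-expression replicate 2), while 5 to 6 were lower. The summed CPM of all collagens changed by 2.21% and that of fibrillar collagens by 19.1% with library size scaling, against −1.57% and 14.7%. The ratios of partner chains kept their sign when any library was left out, which the absence of overlap fixes in advance.

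Equal replicate numbers showed no sign of pairing the libraries, though the correlations given here cannot exclude it. The correlation of deviations from the condition means was −0.127, −0.106 and −0.107 for the 3 numbers over 10995 genes. The fit with the replicate block called 4 collagen genes higher and 1 lower, and 5 pathway genes higher and 6 lower.

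The counts of COL1A1 and COL13A1, below 200 per library, limit the precision of their fold changes. The 28 collagen genes left out of the main fit have too few counts at this depth for a useful comparison.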
